A study of Mus musculus with 8 samples.

Results

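The 37 genes described here are a set of DNA replication and mitosis genes, taken by symbol from a table of 16505 genes measured in epididymal white adipose tissue, a visceral fat depot, of C57BL/6 mice. All 37 were found, and each was measured in all 8 samples. By function, 14 act in DNA replication and S phase and 23 in the G2 phase and mitosis, and the 2 groups are contrasted below. The samples came from 4 wild-type mice (WT) and 4 mice labelled Mir181 double-knockout (called the knockout), each from tissue taken after 12 weeks on a high fat diet. Strain, tissue and diet were thus shared by both groups. The labels do not name the deleted Mir181 loci, and they give no age and no promoter or cell type to which the deletion would be limited. The targeted microRNAs were not analysed here, so the group labels were not checked against them.

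A cell that divides first copies its DNA and then shares it between its daughters. Before S phase, Cdc6 and Cdt1 load the ring of Mcm2 to Mcm7 onto replication origins, and E2F transcription factors, freed from the retinoblastoma proteins, raise the genes for this machinery and for nucleotide supply. Later, cyclins A and B activate Cdk1, the mitotic kinases assemble and check the spindle, and the anaphase-promoting complex ends mitosis. Genes of this later wave depend on FoxM1 and on the MuvB complex. Mature fat cells rarely divide, and in the fat of obese animals the dividing cells are known to include macrophages, fat cell progenitors and endothelial cells.

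Promoter sequences show how the 2 waves differ before any expression value. RefSeq promoter windows (GRCm38.p6, from 250 bases before to 50 after a transcript start) were matched by symbol for 13 of the 14 replication members and 19 of the 23 mitosis members. The windows of 5 members are printed from 200 bases before to 30 after the start, 5′ to 3′ on the gene's strand. They were picked because they hold matches to the letters compared below. Capitals mark matches on either strand to the E2F letters (TTTGGCGC, TTTCCCGC, TTTGCCGC or TTTCGCGC) and to the cell cycle homology region, CHR (TTTGAA or TTCGAA), which is known as a binding site of MuvB. The E2F matches within Mcm6 and Mcm5 that face opposite strands overlap. Mcm6 lies at chr1:128359676-128359905 on the minus strand, Mcm5 at chr8:75109309-75109538 on the plus strand, Cdk1 at chr10:69352883-69353112, Ccnb2 at chr9:70421525-70421754 and Top2a at chr11:99024160-99024389, the last 3 on the minus strand.
Mcm6: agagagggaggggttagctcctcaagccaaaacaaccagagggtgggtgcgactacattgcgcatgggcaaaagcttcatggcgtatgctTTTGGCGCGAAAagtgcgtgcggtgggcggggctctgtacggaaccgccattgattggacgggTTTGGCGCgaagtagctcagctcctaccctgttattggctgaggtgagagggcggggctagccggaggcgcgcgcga
Mcm5: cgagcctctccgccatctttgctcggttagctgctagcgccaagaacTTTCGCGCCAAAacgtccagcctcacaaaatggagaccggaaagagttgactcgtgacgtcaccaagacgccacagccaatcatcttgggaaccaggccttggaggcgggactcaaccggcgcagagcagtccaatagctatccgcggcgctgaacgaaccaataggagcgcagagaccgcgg
Cdk1: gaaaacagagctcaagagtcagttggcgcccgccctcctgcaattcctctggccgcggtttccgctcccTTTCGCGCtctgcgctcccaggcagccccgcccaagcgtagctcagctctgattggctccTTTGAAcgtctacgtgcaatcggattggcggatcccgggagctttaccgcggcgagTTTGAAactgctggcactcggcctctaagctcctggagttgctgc
Ccnb2: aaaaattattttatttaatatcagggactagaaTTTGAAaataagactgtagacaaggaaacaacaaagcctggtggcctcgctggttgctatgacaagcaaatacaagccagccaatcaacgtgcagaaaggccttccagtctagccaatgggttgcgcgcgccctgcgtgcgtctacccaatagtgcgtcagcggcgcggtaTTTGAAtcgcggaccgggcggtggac
Top2a: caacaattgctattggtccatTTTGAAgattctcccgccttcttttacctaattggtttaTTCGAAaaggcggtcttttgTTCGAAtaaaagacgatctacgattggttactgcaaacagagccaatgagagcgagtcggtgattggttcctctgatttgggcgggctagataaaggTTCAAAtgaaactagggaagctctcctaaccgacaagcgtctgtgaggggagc

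The Mcm6 stretch holds 3 E2F matches and the Mcm5 stretch 2, and neither holds a CHR match. Ccnb2 holds 2 CHR matches and Top2a 4, with no E2F match, and Cdk1 holds 1 E2F and 2 CHR matches. Over the whole windows, E2F letters stood in 6 of 14 replication windows (42.9%; Cdc6, Cdt1, Mcm3, Mcm5, Mcm6 and Mcm7) and in 1 of 20 mitosis windows (5%; Cdk1), against 3.69% of 13265 windows of tested genes and 2.26% of all 32851 windows. CHR letters stood in 2 of 14 replication windows (14.3%; Mcm2 and Mcm7) and in 16 of 20 mitosis windows (80%), against 13.8% of tested and 19.2% of all windows. Replication members with a window but no E2F letters were E2f1, Mcm2, Pcna, Rrm1, Rrm2, Tk1 and Tyms. Mitosis members with a window but no CHR letters were Birc5, Ccnb1, Cenpe and Nusap1. The CCAAT box (CCAAT on either strand), known as the site of NF-Y, stood in 64.3% of replication, 85% of mitosis, 37.1% of tested and 37.4% of all windows. Mcm7 and Prc1 have 2 windows each, and those of Prc1 overlap. A wider list of 40 windows of other replication genes held E2F letters in 27.5% and CHR letters in 20%, and 57 windows of other mitosis genes held them in 10.5% and 61.4%. With windows cut to 100 bases before the start, the E2F shares were 28.6% and 0% and the CHR shares 7.14% and 75% in the replication and mitosis members. These are matches of letters, given as a description.

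**Figure D1:**
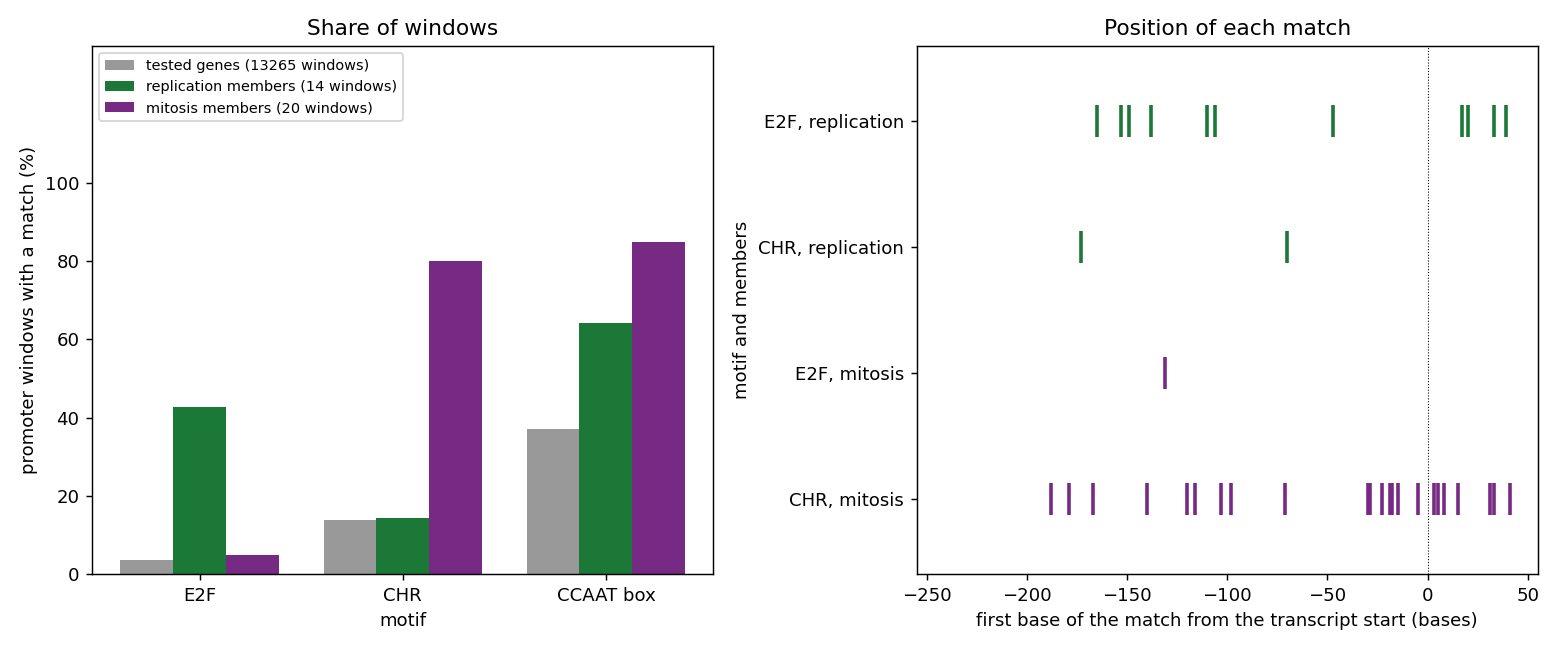
Left, the percent of RefSeq promoter windows with at least 1 match to each motif for tested genes, replication members and mitosis members. Right, the position of each E2F and CHR match in bases from the transcript start; the 80% of mitosis windows with CHR letters and the 42.9% of replication windows with E2F letters stand above the 13.8% and 3.69% of tested genes.

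The values are log2 CPM, the log2 of reads scaled to a library's total, where 1 unit is a doubling. The totals ran from 3736881 reads in knockout replicate 1 to 76838584 in knockout replicate 2, and 8 members had under 10 reads in some library, the lowest being 2 reads of Cdc20 in knockout replicate 1. Ribosomal RNA genes held over 1% of reads in WT replicates 1, 3 and 4 and knockout replicate 1, and epididymis markers over 1% in WT replicate 2 and knockout replicates 2 and 4. Erythroid markers held 0.172% of the reads of knockout replicate 3 and 0.542% of those of replicate 4, and 0.0348% or less elsewhere. The adipocyte markers marked every library as fat, at summed levels of 8391 to 14851 CPM in WT and 21405 to 37544 CPM in knockout. Nothing in the labels states litter or housing, so that a p-value speaks only of the scatter among these 8 samples.

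Nearly the whole set was lower in the knockout. In a fit of limma to 13797 genes (two-sided, Benjamini-Hochberg adjusted p under 0.05), 36 of the 37 members fell and none rose, also at an unadjusted p under 0.05, against 16.1% of all tested genes called lower and 22.7% called higher. In the same 36 genes every knockout library lay under every WT library, which held for 16.6% of tested genes. The exception was the helicase subunit Mcm7. The 14 replication members had a median change of −1.46, or 2.75-fold lower, and the 23 mitosis members one of −2.54, or 5.82-fold lower, while the median of all tested genes was 0.18. All changes are on the log2 scale, with WT subtracted from knockout, and relative to that median the lists stood at −1.63 and −2.72. In bulk tissue, fewer cells of a type and less RNA per cell cannot be told apart.

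**Figure D2:**
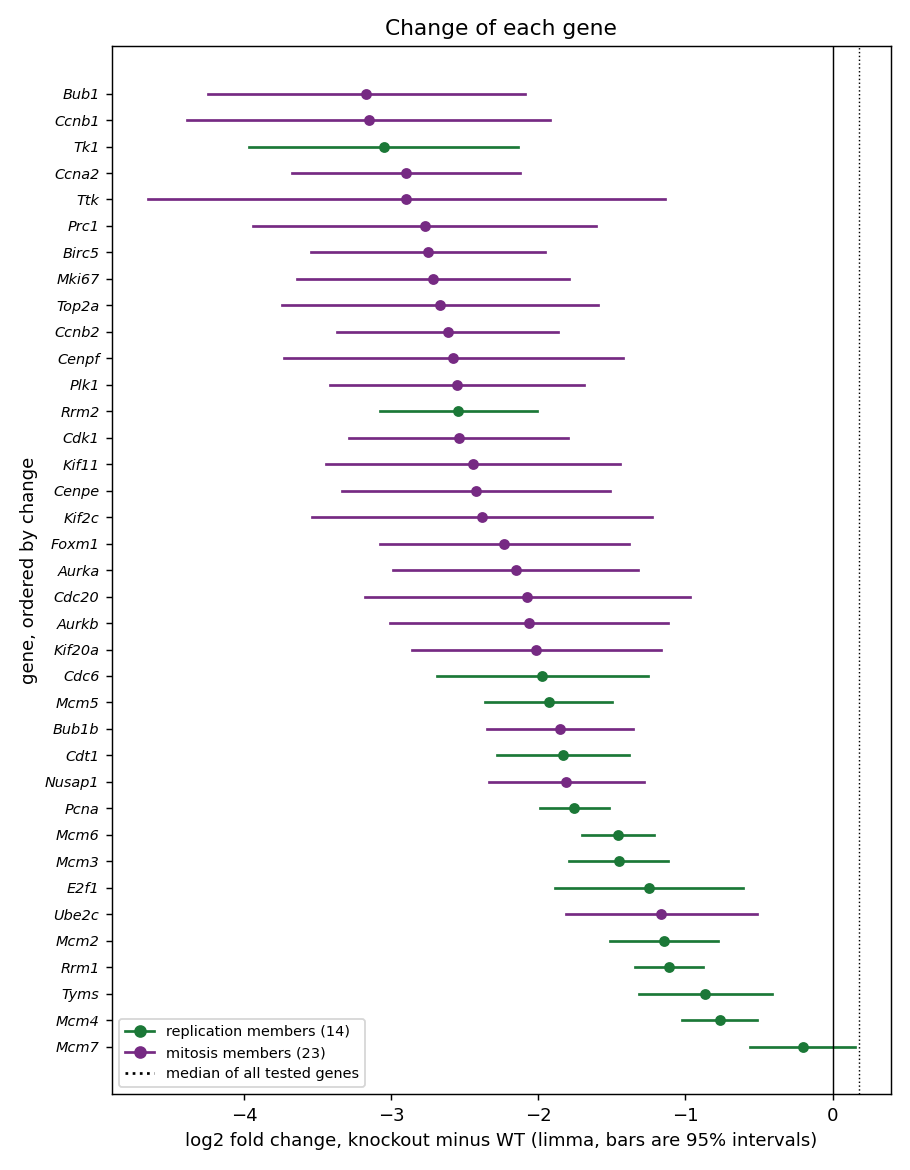
Log2 fold change (knockout minus WT, limma) of each of the 37 genes, ordered by size, with its 95% interval; green marks replication and purple mitosis members, and the dotted line is the median of all tested genes, 0.18. Apart from Tk1 and Rrm2, the 22 genes with the most negative values are mitosis members, and only the interval of Mcm7 reaches 0.

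Of the 6 subunits of the Mcm2 to Mcm7 ring, the helicase that unwinds DNA at the fork, 5 fell, with a median of −1.30. Mcm6 stood at 5.81, 6.06, 6.04 and 6.01 log2 CPM in WT replicates 1 to 4 and at 4.71, 4.40, 4.49 and 4.47 in knockout replicates 1 to 4. The knockout libraries lay within 0.30 of each other, and the lowest WT library was 1.10 above the highest of them (change −1.46 ± 0.11 SE, adjusted p = 3.38e-05). Mcm5 was measured at 5.19, 5.05, 5.03 and 5.29 in WT and at 3.51, 3.47, 3.18 and 2.69 in knockout, which was the largest fall of the ring (−1.93 ± 0.19, adjusted p = 0.000129). Mcm2 stood at 4.53, 4.97, 4.79 and 4.77 in WT and 3.70, 3.94, 3.49 and 3.34 in knockout, a fall of 2.21-fold (−1.15 ± 0.16, adjusted p = 0.00079). Mcm3 changed by −1.45 ± 0.15 (adjusted p = 0.000147) and Mcm4 by −0.77 ± 0.11 (adjusted p = 0.000883), and neither had overlapping groups.

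Mcm7, the remaining subunit, stood at 5.07, 4.94, 4.85 and 4.91 in WT and 4.50, 4.47, 5.08 and 4.92 in knockout. Knockout replicates 1 and 2 lay under all WT libraries, replicate 4 within them and replicate 3 above them all. Its change was −0.20 ± 0.16 with a 95% interval of −0.56 to 0.15 (adjusted p = 0.332), so that a fall of the size of Mcm4's (−0.77) lies outside the interval. Without knockout replicates 3 and 4, the libraries with over 0.1% erythroid reads, the value was −0.46 and passed (adjusted p = 0.0295), an alternative chosen after the data were seen.

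Licensing and S-phase entry fell in all 3 members. Cdt1, which delivers the ring to origins, stood at 3.94, 4.32, 3.87 and 4.55 in WT and at 2.59, 2.32, 2.28 and 2.15 in knockout (−1.83 ± 0.20, adjusted p = 0.000201). Cdc6, the loading ATPase, stood at 2.18, 2.49, 2.84 and 2.82 and 0.27, 1.28, 0.26 and 0.63 (−1.97 ± 0.32, adjusted p = 0.00142), with 4 reads in knockout replicate 1. The lowest WT library lay 1.28 above the highest knockout library for Cdt1 and 0.90 above it for Cdc6. E2f1, a transcription factor of S-phase entry, was less changed, at 4.56, 4.36, 4.34 and 4.57 in WT and 3.92, 3.43, 3.06 and 2.43 in knockout (−1.25 ± 0.28, adjusted p = 0.00805). Its knockout libraries spread over 1.49, against 0.23 in WT.

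Nucleotide supply split between its members, all 4 of which fell. Rrm1 and Rrm2 encode the large and the small subunit of ribonucleotide reductase, which makes deoxyribonucleotides. Rrm1 stood at 5.79, 5.93, 5.82 and 6.06 in WT and 4.66, 4.80, 4.84 and 4.84 in knockout, 2.16-fold lower (−1.11 ± 0.10, adjusted p = 8.48e-05). Rrm2 stood at 4.59, 4.59, 4.52 and 5.0 and 2.46, 2.51, 1.58 and 1.98, 5.83-fold lower (−2.54 ± 0.24, adjusted p = 9.3e-05). The 2 subunits of 1 enzyme thus differed in size of fall, with 95% intervals of −1.34 to −0.88 and −3.08 to −2.01 that do not meet, a difference that was not tested itself. Tyms, thymidylate synthase, stood at 3.16, 3.61, 3.29 and 3.91 and 2.46, 2.69, 2.66 and 2.71 (−0.87 ± 0.20, adjusted p = 0.00882). Its call was lost without the 3 libraries with over 1% epididymis reads (−0.90, adjusted p = 0.0581). Tk1, the thymidine salvage kinase, stood at 4.41, 4.60, 4.48 and 4.53 in WT and 2.31, 2.06, 1.17 and 0.27 in knockout, the largest fall of the replication members (−3.05 ± 0.40, adjusted p = 0.00053).

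Pcna, the sliding clamp that holds DNA polymerases on the template, was the most abundant member per length in both groups. It stood at 7.56, 7.62, 7.47 and 7.77 in WT and 6.04, 5.78, 5.79 and 5.80 in knockout. The WT libraries lay within 0.30 of each other and the knockout libraries within 0.26, with 1.43 between the groups (−1.75 ± 0.10, adjusted p = 1.42e-05). It had the smallest p of all 37 members.

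The 5 genes of the mitotic engine, Cdk1 with its cyclins and Foxm1, all fell, with a median of −2.62. Cdk1, the kinase that starts mitosis, stood at 4.56, 4.85, 4.91 and 4.79 in WT and 2.93, 2.71, 1.99 and 1.31 in knockout (−2.54 ± 0.33, adjusted p = 0.000466). Ccna2, the cyclin A of S phase and G2, stood at 4.99, 5.05, 5.11 and 5.26 and 2.88, 2.88, 1.54 and 1.5 (−2.90 ± 0.34, adjusted p = 0.000307), so that knockout replicates 1 and 2 were alike and replicates 3 and 4 lay lower and close to each other. Ccnb1, the main mitotic cyclin B, stood at 4.05, 4.08, 4.39 and 4.30 and 2.14, 2.13, 0.23 and −0.30 (−3.15 ± 0.55, adjusted p = 0.00212). In that gene the 4 WT libraries spanned 0.34 and the 4 knockout libraries 2.44. Ccnb2, another cyclin B, found at the Golgi, changed by −2.62 ± 0.33 (adjusted p = 0.00043). Foxm1, the transcription factor of the G2 and mitosis genes, stood at 3.91, 4.05, 4.01 and 4.11 and 2.31, 2.65, 1.39 and 0.80 (−2.23 ± 0.37, adjusted p = 0.00178).

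All 5 mitotic kinases fell, with a median of −2.55. Plk1, which acts from mitotic entry to cytokinesis, stood at 3.20, 3.24, 3.25 and 3.13 in WT and 1.01, 1.61, −0.16 and 0.15 in knockout (−2.55 ± 0.38, adjusted p = 0.000986). Aurka, the kinase of the spindle poles, stood at 2.80, 2.73, 2.87 and 3.41 and −0.09, 1.62, 0.78 and 0.88 (−2.16 ± 0.37, adjusted p = 0.002). Unlike most mitosis members, its lowest knockout library was replicate 1, which rests on 3 reads. Aurkb, the kinase of the chromosomal passenger complex, stood at 3.60, 3.40, 3.53 and 3.88 and 2.46, 2.03, 1.35 and 0.33 (−2.06 ± 0.42, adjusted p = 0.00465). Bub1, a checkpoint kinase at the kinetochore, had the most negative change of all 37 genes, 9-fold lower (−3.17 ± 0.48, adjusted p = 0.00101). It had 9 reads in knockout replicate 1, and the change of Ccnb1 (−3.15 ± 0.55) did not differ from it beyond their SEs. Ttk, which starts checkpoint signalling, stood at 2.10, 2.07, 2.30 and 2.67 in WT and 1.19, 0.56, −1.66 and −2.54 in knockout (−2.90 ± 0.78, adjusted p = 0.017) and had the widest knockout spread of the set, 3.72. The call of Ttk was lost with the ribosomal RNA class of a library as a covariate (−2.23, adjusted p = 0.0647), with every library thinned to the depth of the shallowest (−2.45, adjusted p = 0.0543) and without WT replicate 4 (−2.77, adjusted p = 0.0508).

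Checkpoint and anaphase genes were lower in all 4 cases. Bub1b, whose product BubR1 restrains the anaphase-promoting complex, stood at 4.21, 4.12, 4.20 and 4.42 in WT and 2.83, 2.66, 2.02 and 2.02 in knockout (−1.85 ± 0.22, adjusted p = 0.000313). Birc5, or survivin, a subunit of the passenger complex, stood at 3.98, 4.46, 4.05 and 4.43 and 2.14, 2.05, 1.15 and 0.58 (−2.75 ± 0.35, adjusted p = 0.000448). Cdc20, which activates the anaphase-promoting complex, stood at 2.64, 2.52, 3.23 and 3.27 and −0.58, 1.89, 1.02 and 1.03 (−2.08 ± 0.49, adjusted p = 0.00948). Its lowest knockout library was again the shallow replicate 1. Ube2c, the ubiquitin-conjugating enzyme of that complex, had the smallest fall of the mitosis members (−1.17 ± 0.29, adjusted p = 0.0117), with only 0.27 between the groups.

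Motors, kinetochore and spindle genes fell in all 7 cases, with a median of −2.43. Kif11, the motor that pushes the spindle poles apart, stood at 4.45, 4.38, 4.89 and 4.53 in WT and 3.08, 2.79, 1.78 and 0.84 in knockout (−2.44 ± 0.44, adjusted p = 0.00266). Cenpe, the kinetochore motor, stood at 4.23, 4.08, 4.47 and 4.14 and 2.71, 2.46, 1.17 and 0.88 (−2.43 ± 0.40, adjusted p = 0.00171). Cenpf, a large kinetochore protein, stood at 3.79, 3.50, 3.97 and 3.91 and 1.96, 2.36, 0.76 and −0.22 (−2.58 ± 0.51, adjusted p = 0.0041). In all 3 genes the order of the knockout libraries put replicates 3 and 4 below replicates 1 and 2. The other 4 were Prc1, which bundles the central spindle (−2.77 ± 0.52, adjusted p = 0.00305), Kif2c, a microtubule depolymerase (−2.38 ± 0.51, adjusted p = 0.00618), Kif20a, a motor of cytokinesis (−2.01 ± 0.37, adjusted p = 0.00302), and Nusap1, a spindle protein (−1.81 ± 0.23, adjusted p = 0.000451).

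Top2a and Mki67 were the most abundant mitosis members in WT by log2 CPM, and both are used to mark dividing cells. Top2a, the topoisomerase that untangles sister chromosomes, stood at 6.11, 5.89, 6.03 and 6.07 in WT and 4.50, 4.0, 3.01 and 1.91 in knockout (−2.67 ± 0.48, adjusted p = 0.00245). Mki67, the Ki-67 protein that coats mitotic chromosomes, stood at 6.61, 6.46, 6.65 and 6.71 and 4.86, 4.53, 3.43 and 2.74 (−2.72 ± 0.41, adjusted p = 0.00103). The WT libraries spanned 0.22 for Top2a and 0.25 for Mki67, and the knockout libraries 2.59 and 2.12.

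**Figure D3:**
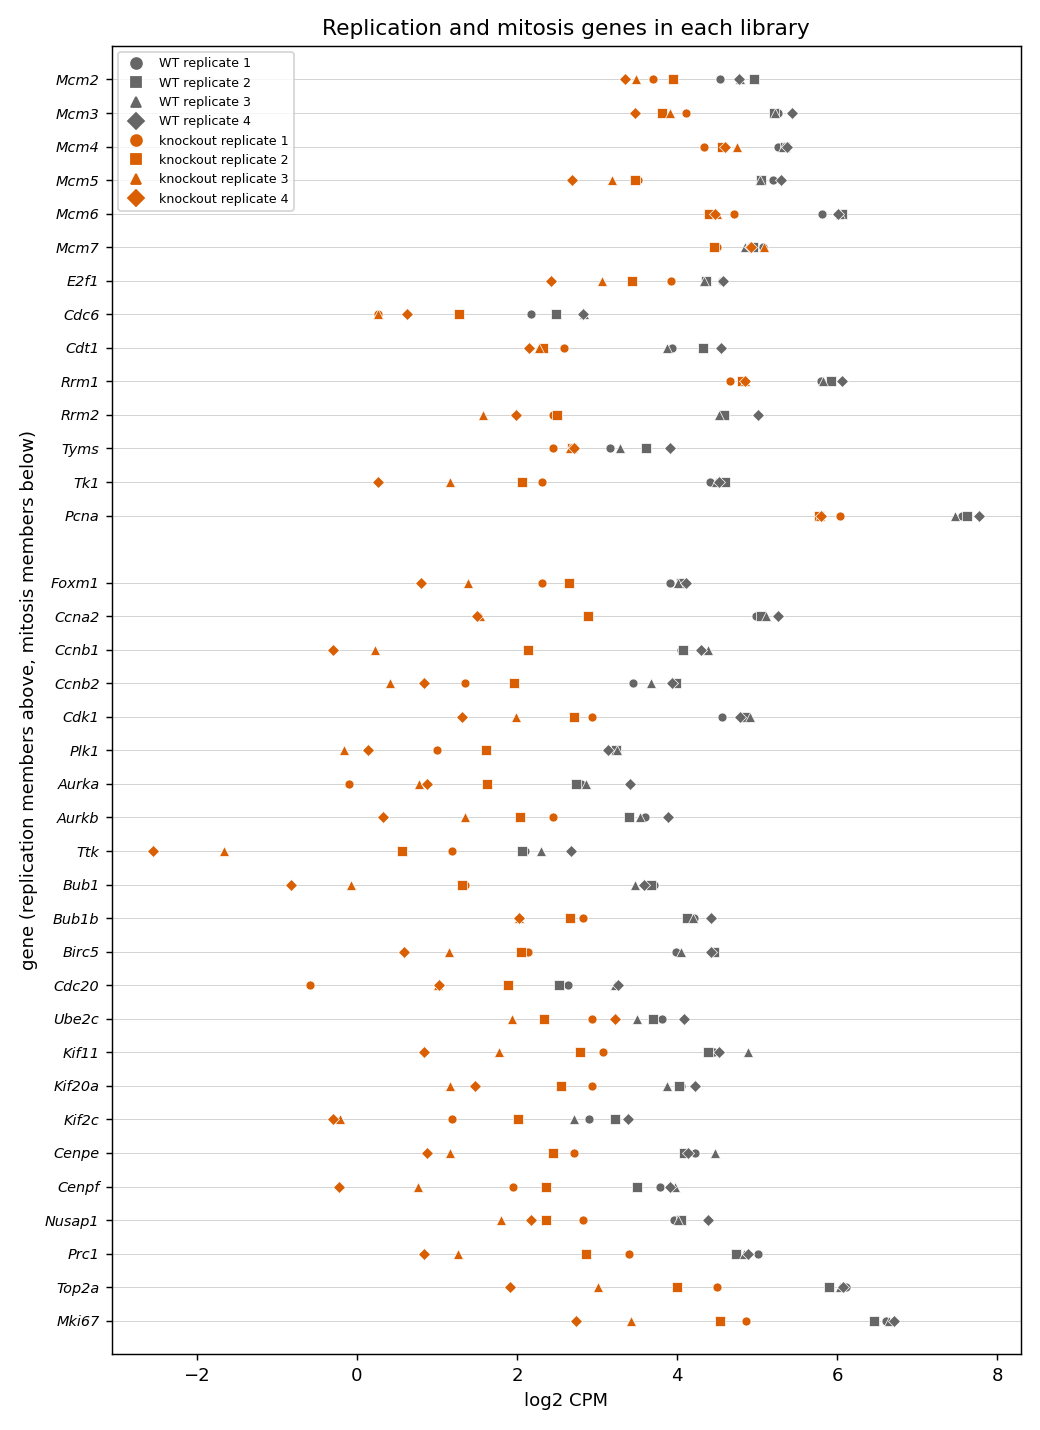
Log2 CPM of each gene in each of the 8 libraries (x axis); grey marks WT and orange knockout, and the marker shape gives the replicate number. The replication members stand above and the mitosis members below, and in every row but that of Mcm7 the orange points lie to the left of the grey ones.

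Mitosis members fell further than replication members and were more scattered in the knockout. A fall of at least 2 log2 units occurred in 20 of 23 mitosis members and in 2 of 14 replication members, Rrm2 and Tk1. Of all 37 members, 28 lay among the lowest 5% of the changes of all tested genes. The mean log2 CPM of the mitosis members was 4.01, 4.01, 4.08 and 4.24 in WT replicates 1 to 4 and 2.27, 2.36, 1.14 and 0.84 in knockout replicates 1 to 4. That of the replication members was 4.81, 4.93, 4.85 and 5.07 in WT and 3.54, 3.54, 3.32 and 3.17 in knockout. The SD of the mitosis mean was 0.78 among the knockout and 0.11 among the WT libraries (n = 4 each), and that of the replication mean was 0.18 and 0.12. Mitosis minus replication was −0.80, −0.92, −0.76 and −0.83 in WT and −1.27, −1.18, −2.19 and −2.32 in knockout, so all 4 knockout libraries lay under all 4 WT libraries. As summed levels, the mitosis members went from 506 ± 29.9 CPM in WT to 104 ± 50.8 in knockout and the replication members from 596 ± 43.0 to 226 ± 11 (SD, n = 4 each). The members were chosen with results known, so the difference between the lists is given as a description, with no p.

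The gap between the lists was not the same in every knockout library. The lowest knockout value of a mitosis member came from replicate 4 in 16 genes, from replicate 3 in 5 and from replicate 1 in 2 (Aurka and Cdc20). Replicates 3 and 4 both lay under replicates 1 and 2 in 20 of 23 mitosis members, in 6 of 14 replication members and in 18.1% of all tested genes. The SD was larger in knockout than in WT in 23 of 23 mitosis members, in 10 of 14 replication members and in 9427 of 13797 tested genes. Replicates 3 and 4 were also the libraries with over 0.1% erythroid reads, and Cdkn1a, the p21 inhibitor, stood at 6.25 and 6.16 in replicates 1 and 2 and at 4.52 and 4.70 in replicates 3 and 4; their part in the result was not tested. Without these 2 libraries, an alternative chosen after the data were seen, the median change was −1.74 for the mitosis members and −1.37 for the replication members. The difference of the medians shrank from −1.08 to −0.36, while all 23 mitosis members and all 14 replication members passed as lower. On the log2(CPM + 1) scale, with all 8 libraries, the mitosis median was −2.10 and the difference of the medians −0.69.

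**Figure D4:**
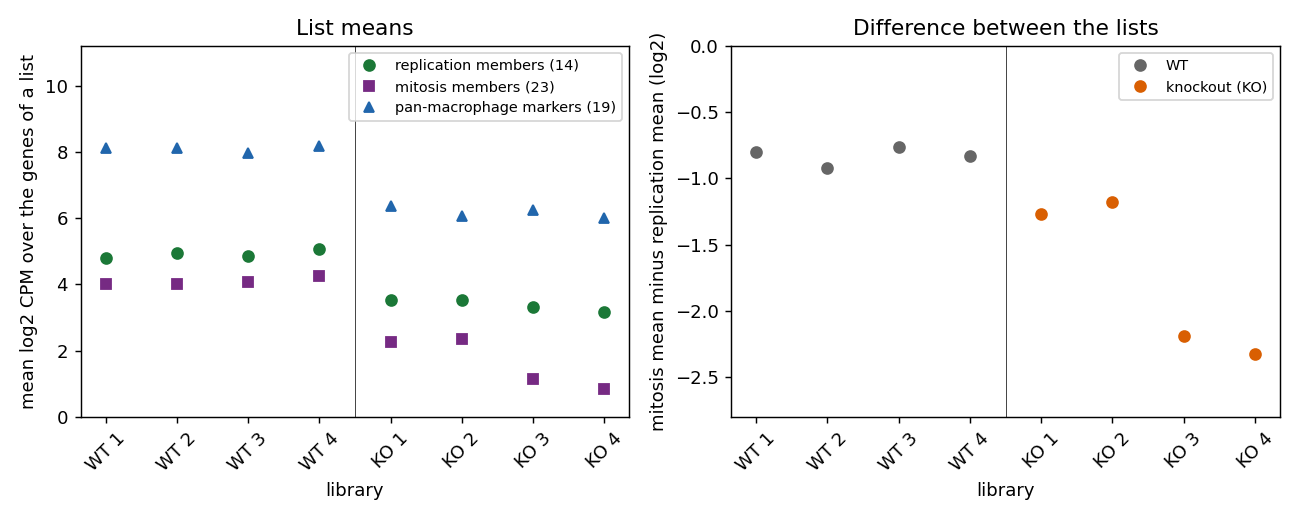
Left, the mean log2 CPM per library of the 14 replication members, the 23 mitosis members and 19 pan-macrophage markers, with WT libraries left and knockout (KO) libraries right of the line. Right, the mitosis mean minus the replication mean in each library, −0.92 to −0.76 in WT and −2.32 to −1.18 in knockout.

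Other classes of library gave the same order of the lists. Among the 4 libraries with over 1% ribosomal RNA reads (3 WT, 1 knockout) the median difference of the group means was −1.79 for the mitosis and −1.24 for the replication members, and among the other 4 (1 WT, 3 knockout) it was −2.71 and −1.54. All 37 members were lower in the knockout within both classes. Of 13797 tested genes, 6509 were lower in the class with over 1% ribosomal RNA reads and 6142 in the other. Each class holds a group of 1 library, so these values carry no test.

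Markers of other cells also changed, some down and some up. For comparison, 16.1% of all tested genes were called lower and 22.7% higher. Of 19 pan-macrophage markers 17 fell and 1 (Cd163) rose, with a median of −1.91, and their mean log2 CPM went from 8.10 ± 0.08 in WT to 6.17 ± 0.16 in knockout (SD, n = 4 each), with summed levels of 11367 to 13555 CPM in WT and 2274 to 3214 CPM in knockout. Between the lists, the mitosis mean minus the macrophage mean was −4.01 ± 0.12 in WT and −4.52 ± 0.73 in knockout, and the replication mean minus the macrophage mean was −3.18 ± 0.10 and −2.78 ± 0.17. By library, mitosis minus macrophage was −4.12, −4.10, −3.89 and −3.93 in WT and −4.09, −3.72, −5.12 and −5.16 in knockout. Knockout replicates 3 and 4 thus lay under all WT libraries, replicate 1 within them and replicate 2 above them. Of 6 mast cell markers 5 fell (178.6 to 424 CPM summed in WT, 37.4 to 79.0 in knockout), of 12 adipocyte markers 11 rose and of 7 endothelial markers 7 rose. One of 10 tested T cell markers (Cd28) fell, with 13.3 to 21.8 CPM summed in WT and 24.2 to 31.2 in knockout. One of 5 tested B cell markers (Cd22) fell, with 23.9 to 31.6 and 12.8 to 19.4 CPM. Of 9 tested progenitor and fibroblast markers 3 fell and 1 rose. The T cell, B cell and fibroblast counts come from short lists and are given as a description. Testis germ cell markers summed to 20.8 to 55.1 CPM in WT and 6.58 to 84.8 CPM in knockout, with 2 of 6 abundant enough to be tested and neither called. None of the listed markers in the table was at 0 reads in all libraries of a group. The part of these cells in the fall of the members was not tested.

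Levels per length order the members differently from their raw values. By log2 CPM per kilobase of annotated exon (GENCODE M21), Pcna was highest in WT (7.0), followed by Tk1 (3.98), Rrm1 (3.90), Mcm6 (3.85) and Mcm3 (3.68). The lowest were Ttk (0.75), Cdc6 (0.32) and Cenpf (0.32), and the last 2 did not differ beyond their SDs of 0.31 and 0.21. In the knockout Pcna was still first (5.25), then Mcm7 (3.18), rank 9 in WT, Rrm1 (2.79) and Mcm4 (2.72). Tk1 went from rank 2 to rank 15. The highest mitosis member was Top2a in WT (3.64, rank 6) and Ube2c in knockout (1.23, rank 10).

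Most further genes of both waves were also lower in the knockout. Of all tested genes, 16.1% were called lower and 22.7% called higher. Of 46 other tested replication genes 28 fell and none rose, also at an unadjusted p under 0.05 in limma, with a median of −0.84. Among those with the smallest p were Gmnn, the licensing inhibitor geminin (−1.68 ± 0.19, adjusted p = 0.000231), Fen1, the flap endonuclease (−1.39 ± 0.17, adjusted p = 0.000349), and Lig1, the ligase of Okazaki fragments (−1.05 ± 0.13, adjusted p = 0.000352). The 3 subunits of the single-strand binding protein RPA, named after their values were seen, did not pass: Rpa1 changed by 0.02 ± 0.12, Rpa2 by 0.02 ± 0.19 and Rpa3 by 0.11 ± 0.23. Orc6 (0.25 ± 0.15), Gins4 (0.21 ± 0.13) and Dctpp1 (0.31 ± 0.33), named in the same way, were higher in the knockout and did not pass. Of 58 other tested mitosis genes 54 fell and 1 rose, with a median of −2.05. Here Ndc80, a kinetochore protein that binds microtubules (−3.31 ± 0.33, adjusted p = 0.000128), Ncapg2, a condensin subunit (−1.52 ± 0.16, adjusted p = 0.000158), Kif4, a chromosome motor (−2.62 ± 0.30, adjusted p = 0.000262), and Cdca8, the passenger protein borealin (−2.20 ± 0.26, adjusted p = 0.000319), had the smallest p. In these lists too the mitosis median was the lower, and the lists were written with earlier results known.

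Pttg1, securin, which holds separase until anaphase, was the 1 mitosis gene that rose, at 3.51, 4.29, 3.74 and 3.95 in WT and 4.45, 4.28, 4.85 and 5.25 in knockout (0.83 ± 0.24, adjusted p = 0.024). Its groups overlapped, because WT replicate 2 lay above knockout replicate 2. Cks1b, a Cdk-binding subunit, changed by 0.12 ± 0.17, and with Cit (−1.18 ± 0.46) and Cenpm (−1.12 ± 0.48) it was among the 3 that did not pass. These 4 genes were singled out after their values were seen.

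Genes that act before S phase did not move as 1 group. Of 14 tested G1 cyclins, their kinases and pocket proteins 4 fell and 3 rose, with a median of −0.11. Of all tested genes 16.1% were called lower and 22.7% higher. Those shares also apply to the short lists of E2F factors, CDK inhibitors and MuvB genes below. With so few genes per list, these counts are given as a description. Among the D cyclins, which open the G1 phase, Ccnd1 fell (−0.76 ± 0.21, adjusted p = 0.0208), while Ccnd2 (0.68 ± 0.18, adjusted p = 0.0173) and Ccnd3 (1.11 ± 0.16, adjusted p = 0.000832) rose. Ccnd1 stood at 6.47, 7.01, 6.71 and 6.97 in WT and 5.75, 6.31, 5.60 and 6.48 in knockout, with overlapping groups. Ccnd1 lost its call without WT replicate 4 (adjusted p = 0.0638) or knockout replicate 3 (adjusted p = 0.0537). Ccnd2 lost it with median centring (adjusted p = 0.0764), voom on whole reads (adjusted p = 0.0524), without WT replicate 4 (adjusted p = 0.0561) and without the 2 libraries with over 0.1% erythroid reads (adjusted p = 0.0762). Rbl1, the pocket protein p107, fell (−0.91 ± 0.12, adjusted p = 0.000534), Myc fell (−0.95 ± 0.17, adjusted p = 0.00254), and Tfdp2, a partner of E2F factors, rose (0.87 ± 0.16, adjusted p = 0.00251).

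Of 7 other E2F factors only E2f8, a repressor that is itself made in S phase, fell (−2.75 ± 0.53, adjusted p = 0.00368). E2f7 changed by −0.77 ± 0.29 (adjusted p = 0.0601) and E2f3 by −0.52 ± 0.19 (adjusted p = 0.0533), and E2f2 by −0.37 ± 0.32 (adjusted p = 0.38). E2f3 passed under 9 and E2f7 under 6 of the 23 alternatives, and E2f2 passed without knockout replicate 4 (adjusted p = 0.0238). E2f4 (−0.13 ± 0.20), E2f5 (0.18 ± 0.21) and E2f6 (0.16 ± 0.11) did not pass, and their sign changed under at least 1 other setting.

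CDK inhibitors also varied. Of 6 tested, Cdkn2c, the p18 inhibitor of Cdk4 and Cdk6, rose, from 5.11, 5.02, 5.68 and 4.90 in WT to 6.70, 6.31, 7.39 and 7.49 in knockout (1.80 ± 0.28, adjusted p = 0.0012). Cdkn3, a phosphatase that is itself high in mitosis, fell (−1.67 ± 0.48, adjusted p = 0.0235), but lost its call under 9 of 22 alternatives (adjusted p up to 0.141 with thinned reads). Cdkn1a changed by −0.93 ± 0.38 (adjusted p = 0.0816) and Cdkn1c by −0.48 ± 0.31 (adjusted p = 0.245). Cdkn1a passed under 4 of the 23 alternatives, with array weights (adjusted p = 0.00647), with voom on whole reads (adjusted p = 0.0355) and without knockout replicate 1 (adjusted p = 0.0242) or replicate 2 (adjusted p = 0.0343). Cdkn1c passed under 1, without the 2 libraries with over 0.1% erythroid reads (−0.98, adjusted p = 0.0352). Cdkn1b (0.05 ± 0.16) and Cdkn2b (0.03 ± 0.14) did not pass, and their sign changed with the scaling. Cdkn2a and Cdkn2d were under the limit of 0 log2 CPM and were not tested.

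Of 5 MuvB genes Lin9 fell (−1.01 ± 0.21, adjusted p = 0.00486) and Lin52 rose (0.53 ± 0.15, adjusted p = 0.0248), while Lin54 (−0.27 ± 0.16, adjusted p = 0.211) and Lin37 (0.21 ± 0.18, adjusted p = 0.387) did not pass, the last with a sign that changed with the scaling. Lin54 passed with voom on whole reads (−0.52, adjusted p = 0.0279). Lin52 lost its call under 10 of 23 alternatives and Lin9 under 2, thinned reads (adjusted p = 0.176) and without the libraries with over 1% epididymis reads (adjusted p = 0.0511).

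A microRNA pairs through its seed, bases 2 to 8, with sites in messenger RNAs. The 5p forms of the miR-181 family share 1 seed, in capitals, and are printed from RefSeq to show that the site is the same whichever locus was deleted.
miR-181a-5p: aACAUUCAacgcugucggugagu
miR-181b-5p: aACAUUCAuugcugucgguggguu
miR-181c-5p: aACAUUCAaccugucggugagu
miR-181d-5p: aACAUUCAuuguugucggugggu

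The matching DNA letters, TGAATGT, stood in the longest annotated 3′ UTR (GENCODE M21) of 6 of 37 members (16.2%; Aurkb, Ccna2, Ccnb1, Cenpf, Nusap1 and Pcna), against 19.3% of 12867 tested genes with an annotated 3′ UTR. Of these 6 members, 1 of 14 acts in replication and 5 of 23 in mitosis. The members' UTRs were shorter, with a median of 780 bases against 1365. All 6 were lower in the knockout, with changes from −3.15 (Ccnb1) to −1.75 (Pcna), within the range of the members without the letters.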

How the data were processed

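Polyadenylated RNA of 8 fat samples was sequenced with a stranded kit as 75-base single reads, per the labels' protocols. The submitters' processing notes name Trimmomatic, TopHat2, featureCounts, limma and the build mm9; of their versions and roles nothing is given in the sources used here. As deposited, the values are voom log2 CPM, 16505 genes by 8 samples. These are the log2 of CPM with 0.5 added to the reads and 1 to the library total. Working back from them gave whole reads, to a tolerance of 0.01 read, for 100% of values. Libraries were scaled to their totals only.

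The fit took the 13797 genes whose mean reached 0 log2 CPM, with lmFit and eBayes of limma 3.58.1 (R 4.3.3; mean-variance trend, group as the only term, Benjamini-Hochberg adjustment, 0.05). With arms this small a gene of few reads in the shallow libraries is measured coarsely. The lists of replication, mitosis and marker genes, and the members themselves, were chosen with earlier results of these data known, so lists carry counts and medians and no p. By rule, all members are named, per-library values are given for a fixed set of 26 members and for those that lost a call, and of the other cell cycle lists every tested CDK inhibitor, D cyclin and E2F factor and the 4 genes of smallest p are named, except 1 that is not reported here. Promoter windows and microRNAs come from RefSeq (GRCm38.p6) and UTR and exon lengths from GENCODE M21, matched by symbol; coordinates are of GRCm38.p6 and not of the build of the reads. The script was tested on simulated data with equal scatter in both groups. That test therefore does not cover the wider knockout scatter of the mitosis members. The alternatives changed the transform, filter, scaling, variance model, weights, replicate block, depth, covariates and libraries. Plots were drawn with matplotlib 3.10.9.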

Additional observations from a re-analysis of the deposited data

Results flagged for a closer look

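In 6 of 140 sets of 4 values (37 members, 30 other genes named by the fixed rule and 3 list means, in each group) 1 library stood apart from the other 3 by Dixon's criterion, with the gap to its nearest neighbour set against the range. Chance flags about 1 in 20 such sets, and the explanations were not tested. Among the members, Mcm6 stood at 5.81 log2 CPM in WT replicate 1, with the others at 6.01 to 6.06. Rrm2 stood at 5.0 in WT replicate 4, with the others at 4.52 to 4.59, and Pcna stood at 6.04 in knockout replicate 1, with the others at 5.78 to 5.80. Among the other cell cycle genes, WT replicate 3 stood apart for E2f4 (4.57 against 4.97 to 5.0), Cdkn1a (6.22 against 6.37 to 6.39) and Cdkn2b (3.69 against 3.43 to 3.45). None of these libraries closed the gap between WT and knockout for Mcm6, Rrm2 or Pcna.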

How the results depend on the processing

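Of the 23 alternatives 22 tested all 37 members, and the filter at 2 log2 CPM tested 31, without Cdc6, Plk1, Aurka, Ttk, Cdc20 and Kif2c. All 37 members were lower under each alternative that tested them, and 34 kept their call in those; the exceptions, Mcm7, Ttk and Tyms, are given in the report. Leaving out 1 library at a time gave 13 replication and 22 to 23 mitosis members called lower, list medians of −1.54 to −1.39 and −2.83 to −2.18, a difference of medians of −1.39 to −0.79, and 1860 to 2297 lower and 2143 to 4075 higher genes of all tested. Of all calls 58.6% were higher; that share was 46.4% with median centring (2444 higher, 2825 lower), 48.2% with quantile normalization (2478, 2660), 45.4% with voom on whole reads (2439, 2934) and 48.2% without the libraries with over 0.1% erythroid reads (1746, 1880), which also gave a mitosis median of −1.74 and a difference of −0.36. The replication median was −1.67 with voom on whole reads and −1.29 with thinned reads. With the filter at 2 log2 CPM, 34 of the 36 other mitosis genes still tested were lower.

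The replicate numbers showed no regular pairing of the samples (correlations of deviations of 0.36, 0.79, 0.24 and −0.36 for numbers 1 to 4), and of the knockout libraries only replicate 2 correlated best with the WT library of its own number. Both libraries of number 2 hold over 1% epididymis reads. Such correlations include differences in epididymis and ribosomal RNA reads, so they cannot show whether equal numbers shared a litter or batch. With the replicate block 3232 genes were higher and 2136 lower, every member kept its call or lack of one, and E2f3 passed (−0.52, adjusted p = 0.04).

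Signs changed for genes that did not pass. Cdkn1b was −0.096 with median centring, −0.054 with quantile normalization, −0.044 with voom on whole reads, −0.067 with ribosomal RNA class as a covariate, −0.073 without libraries with over 1% epididymis reads, −0.0095 without ribosomal RNA genes, −0.19 without libraries with over 0.1% erythroid reads, and −0.10 to 0.15 over the fits without 1 library. Cdkn2b was −0.11, −0.18 and −0.12 under the 3 scalings in that order, −0.018 with array weights, −0.027 without libraries with over 1% epididymis reads and −0.023 without ribosomal RNA genes. Lin37 was −0.063 with quantile normalization and −0.0041 with voom on whole reads. E2f5 was −0.020 with quantile normalization and −0.062 with ribosomal RNA class as a covariate, E2f6 was −0.026 with voom on whole reads, and E2f4 was 0.0072 with array weights and −0.24 to 0.059 over the fits without 1 library. The cause was not tested. Depth limits the members with under 10 reads in a library.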
